A study of Mus musculus with 5 samples.

Results

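The mitosis genes described here are 32 named genes that cells switch on as they prepare for and pass through division, among them Mki67, Top2a, Cdk1 and the cyclin B genes. They were taken by symbol from a table of 54532 mouse genes, and all 32 were found and passed the filter on low values (16411 genes passed in all). The RNA sequenced came from 5 libraries of neurospheres, floating clusters of neural stem cells, progenitors and their progeny, grown from the hippocampus of C57BL/6 mice at postnatal day 0. The 2 control libraries had the genotype hGFAPCre+, Arid1b+/+ and the 3 heterozygous libraries hGFAPCre+, Arid1b flox/+, so every library carried the Cre transgene and none tests it. The Arid1b protein belongs to the BAF complex, which remodels chromatin, and in this transgene the human GFAP promoter drives Cre in neural progenitors. The spheres grew for 7 days in B27 medium with FGF-2 and EGF, each at 20 ng/ml, which keep progenitors dividing. Cells of a mouse went into 2 wells of a 12-well plate, and the labels leave unsaid whether libraries are separate mice, so the spread behind the p-values is that of these libraries and may be technical.

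Entry into mitosis is driven by the kinase Cdk1 bound to A- and B-type cyclins, with Plk1 and the Aurora kinases acting beside it. Chromosomes then attach to spindle microtubules through kinetochores, a checkpoint holds the anaphase-promoting complex until all are attached, and the cell divides by cytokinesis. Transcripts of these genes rise together in the G2 phase and fall after division, so in a mixed culture their summed level follows the share of cells in or near mitosis, which in the perinatal hippocampus are mostly progenitors.

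Promoter sequences are shown first, since these genes are known to share elements for their timing. In mammalian cells the cell cycle genes homology region, TTTGAA or TTTAAA near the start site, is known to be bound by complexes that contain the MuvB core, and CCAAT boxes upstream of it by the factor NF-Y. RefSeq promoters of the build GRCm38.p6, from 250 bases before to 50 after the start site, were found for 27 of the 32 genes. TTTGAA on either strand or TTTAAA, which reads the same on both, occurred in 24 of the 27 (88.9%), against 27.6% of all 32851 promoters and 19.4% of the 14867 promoters of tested genes. CCAAT on either strand occurred in 22 of 27 (81.5%), against 37.4% of all promoters, and at least 2 copies in 17 of 27 (63.0%), against 11.7%. Both kinds stood together in 20 of 27 (74.1%), against 10.7% of all promoters and 7.60% of those of tested genes. A match of letters is a description and not a bound site. The 6 most abundant of the 20 genes with both are printed 5′ to 3′ with the matches in capitals, and positions count from the start site as base 1, where the last 50 bases begin.
Top2a, chr11:99024140-99024439, - strand: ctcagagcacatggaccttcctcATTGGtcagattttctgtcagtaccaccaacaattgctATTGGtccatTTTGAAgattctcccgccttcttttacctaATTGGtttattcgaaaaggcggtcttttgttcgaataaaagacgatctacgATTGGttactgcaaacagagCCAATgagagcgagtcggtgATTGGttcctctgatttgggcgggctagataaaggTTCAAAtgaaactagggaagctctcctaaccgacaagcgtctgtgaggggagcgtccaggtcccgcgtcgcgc
Mki67, chr7:135716330-135716629, - strand: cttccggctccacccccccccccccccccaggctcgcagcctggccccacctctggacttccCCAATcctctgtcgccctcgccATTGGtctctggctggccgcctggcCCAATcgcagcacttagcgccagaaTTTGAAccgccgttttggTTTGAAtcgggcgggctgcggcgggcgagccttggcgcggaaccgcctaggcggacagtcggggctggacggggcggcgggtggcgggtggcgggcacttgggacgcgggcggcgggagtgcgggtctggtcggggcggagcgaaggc
Ccnb1, chr13:100786437-100786736, - strand: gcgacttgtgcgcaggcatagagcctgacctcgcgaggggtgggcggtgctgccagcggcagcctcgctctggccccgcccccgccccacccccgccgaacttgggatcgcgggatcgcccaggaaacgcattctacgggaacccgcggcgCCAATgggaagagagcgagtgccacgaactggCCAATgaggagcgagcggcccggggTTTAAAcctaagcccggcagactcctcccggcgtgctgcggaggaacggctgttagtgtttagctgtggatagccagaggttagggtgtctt
Cdc20, chr4:118437294-118437593, - strand: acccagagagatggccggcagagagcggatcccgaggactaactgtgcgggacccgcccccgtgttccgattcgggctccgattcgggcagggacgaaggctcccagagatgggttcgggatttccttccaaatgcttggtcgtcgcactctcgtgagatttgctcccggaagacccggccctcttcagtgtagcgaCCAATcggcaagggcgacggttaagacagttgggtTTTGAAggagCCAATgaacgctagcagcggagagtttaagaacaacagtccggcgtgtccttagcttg
Cenpf, chr1:189688037-189688336, - strand: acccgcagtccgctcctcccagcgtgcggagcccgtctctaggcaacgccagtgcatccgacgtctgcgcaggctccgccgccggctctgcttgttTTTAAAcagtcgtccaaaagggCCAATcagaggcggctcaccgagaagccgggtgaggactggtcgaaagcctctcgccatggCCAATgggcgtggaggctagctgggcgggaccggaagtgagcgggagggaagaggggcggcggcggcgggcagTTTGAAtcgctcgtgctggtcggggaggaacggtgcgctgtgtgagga
Ube2c, chr2:164769679-164769978, + strand: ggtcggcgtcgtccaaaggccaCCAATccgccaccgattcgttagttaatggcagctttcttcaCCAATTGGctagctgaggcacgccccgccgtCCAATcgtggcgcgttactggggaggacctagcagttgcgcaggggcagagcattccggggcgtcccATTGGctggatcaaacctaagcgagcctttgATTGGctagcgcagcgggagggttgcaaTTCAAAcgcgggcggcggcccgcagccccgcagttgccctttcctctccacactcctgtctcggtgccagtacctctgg
Top2a and Ube2c each held 6 matches to CCAAT in either orientation. In Ube2c a pair of them overlap as CCAATTGG. Ccnb1 carried TTTAAA 42 bases before the start site, downstream of CCAAT boxes that begin at bases -99 and -67. Cdc20 had TTTGAA at base -18 and Cenpf at base 3, while Mki67 had its copies farther upstream, at bases -116 and -98. Over the 24 genes, the 37 matches to TTTGAA or TTTAAA had a median position of base 3, and the 57 matches to CCAAT in 22 genes a median of base -71.

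Depth ran from 19833803 to 25494722 recovered reads per library. The controls correlated with each other at 0.952 across genes (log2 scale), below the 0.988 to 0.989 among heterozygous libraries, and control replicate 1 lay farthest from the latter (0.927 to 0.930, against 0.971 to 0.974 for control replicate 2). Results for the mitosis genes, and medians of the other lists, are therefore also given without each control. Arid1b, the targeted gene (chromosome 17, 4994332 to 5347656, + strand), had normalized counts, which are reads divided by the authors' size factor of each library, of 1510.4 and 1729.9 for controls against 1102, 1145 and 1003 for heterozygotes. It was lower in all 3 heterozygous libraries without passing the test (log2 fold change -0.58, with an SE of 0.14 and a limma adjusted p = 0.0701). The reads do not show whether the floxed exons were lost. Markers of neural stem cells were abundant, with all 12 detected, whereas the 8 microglia markers summed to 44.2 to 231 normalized counts per library. Xist reads numbered 36851 in heterozygous replicate 2 and 1 to 301 in the others. Xist is transcribed from the inactive X chromosome.

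For most of the mitosis genes the widest gap was that between the 2 controls, with the heterozygous libraries in between. All 32 were higher in control replicate 2 than in control replicate 1, where 51.5% of tested genes were, and 24 of 32 by more than 2-fold, where 8.42% were. None was more than 2-fold higher in control replicate 1, where 10.1% of tested genes were. In 27 of 32 genes all 3 heterozygous libraries lay between the controls, against 18.2% of tested genes and against 10.6% that did so with control replicate 2 the higher. The share of all reads taken by the 32 genes was 0.146% and 0.349% for the 2 controls against 0.224%, 0.202% and 0.229% for the heterozygotes, each in replicate order. Fewer cells in mitosis and less of these transcripts per dividing cell cannot be told apart in bulk RNA.

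**Figure D1:**
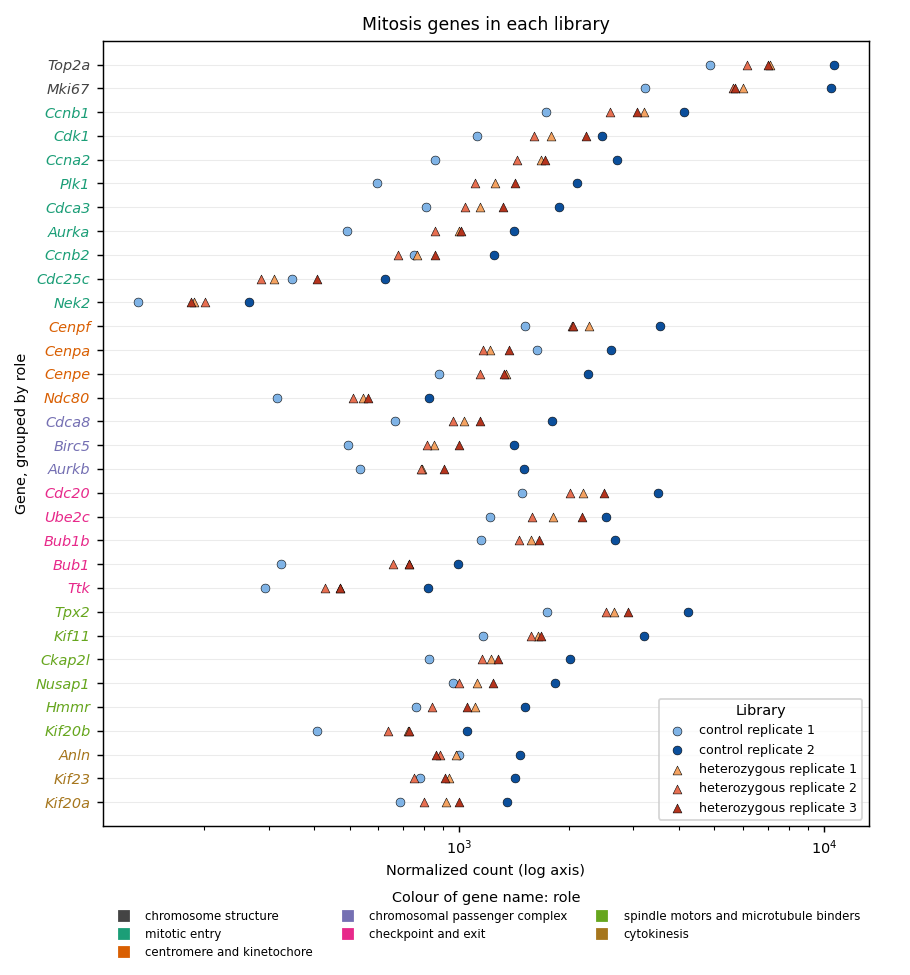
Normalized count (log axis) of each of the 32 mitosis genes in each library, with circles for the 2 controls, triangles for the 3 heterozygous libraries and gene names coloured by role. Control replicate 2 is the highest library for all 32 genes and control replicate 1 the lowest for 27.

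Mki67 encodes the Ki-67 protein that coats mitotic chromosomes, and Top2a the topoisomerase that untangles them. Mki67 (chromosome 7, 135689784 to 135716361, - strand) showed normalized counts of 3223 for control replicate 1 and 10453 for control replicate 2, against 5982, 5604 and 5685 for heterozygous replicates 1 to 3. Control replicate 2 exceeded control replicate 1 by 3.24-fold (95% interval 3.11 to 3.38), an interval that covers counting error only, as do all those given here for ratios between the controls. The 3 heterozygous values lay within 1.07-fold of each other and near the middle of the gap. Top2a (chromosome 11, 98992943 to 99024189, - strand) had 4876 and 10629 for controls against 7093, 6123 and 6994 for heterozygotes. It followed the same order, with 2.18-fold (95% interval 2.10 to 2.26) between the controls.

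The genes of mitotic entry were ordered the same way, with 7 of 9 between the controls in every heterozygous library. Ccnb1, the main B-type cyclin (chromosome 13, 100778650 to 100786570, - strand), showed normalized counts of 1722 and 4117 for controls against 3197, 2580.1 and 3064 for heterozygotes. Its partner kinase Cdk1 (chromosome 10, 69335146 to 69352938, - strand) had 1117 and 2461 for controls against 1784, 1596 and 2229.9 for heterozygotes. Both lay nearer to control replicate 2, with heterozygous means 61.1% and 64.0% of the way from control replicate 1 to control replicate 2 on the log2 scale. Plk1, the polo-like kinase (chromosome 7, 122159439 to 122169873, + strand), had 594 and 2096 for controls against 1249, 1100.4 and 1423 for heterozygotes. Its 3.53-fold (95% interval 3.21 to 3.89) difference was the largest between the controls among the 32 genes. Ccna2, the A-type cyclin of S and G2 phase, had 858 and 2699.7 for controls against 1677, 1441 and 1718 for heterozygotes, 3.15-fold (95% interval 2.90 to 3.42) between the controls. Aurka, the centrosomal Aurora kinase, had 492 and 1415 for controls against 998, 858 and 1010.2 for heterozygotes. In each of these 5 genes the lowest heterozygous library exceeded control replicate 1 and the highest stayed under control replicate 2. Cdca3, which promotes entry by targeting an inhibitory kinase for destruction, and Nek2, a kinase of centrosome separation, also lay between the controls, Nek2 at the lowest level of the 32 genes (132 and 266 for controls against 187, 200.3 and 184 for heterozygotes).

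Ccnb2 and Cdc25c left that order. Ccnb2, the second B-type cyclin, had 749 and 1247 for controls against 766, 678 and 859 for heterozygotes. Its heterozygous values therefore sat around control replicate 1, with replicate 2 under it and replicates 1 and 3 over it. Cdc25c, a phosphatase that activates Cdk1 (chromosome 18, 34732993 to 34751533, - strand), had 347 and 627 for controls against 311, 287 and 406 for heterozygotes, so heterozygous replicates 1 and 2 were under both controls. Its exons share 623 bases with Gm3550 on the other strand, whose mean normalized count was 15.1.

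All 5 genes of the spindle checkpoint and of mitotic exit lay between the controls. Bub1, a checkpoint kinase (chromosome 2, 127801122 to 127831865, - strand), showed normalized counts of 324 and 989 for controls against 726, 658 and 726 for heterozygotes. The heterozygous mean stood 69.4% of the way to control replicate 2, the farthest of the 32 genes. Cdc20, the activator of the anaphase-promoting complex (chromosome 4, 118432901 to 118437352, - strand), had 1488 and 3500.5 for controls against 2188, 2006 and 2487 for heterozygotes. It was the most abundant of the 32 per length, at 1249 normalized counts per kb of exon over the 5 libraries. Ube2c, the ubiquitin-conjugating enzyme of that complex, had 1216 and 2518 for controls against 1801, 1581 and 2169.5 for heterozygotes. Bub1b, the checkpoint protein BubR1, differed 2.33-fold (95% interval 2.17 to 2.51) between the controls, and Ttk, the kinase Mps1 that starts the checkpoint, 2.79-fold (95% interval 2.43 to 3.22).

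The chromosomal passenger complex, which corrects faulty attachments and later guides cytokinesis, lay between the controls in all 3 genes. Aurkb, its kinase, had 533 and 1499.7 for controls against 791, 784 and 909.9 for heterozygotes. Birc5, the survivin subunit, had 495 and 1409 for controls against 849.6, 816 and 996 for heterozygotes. Cdca8, the borealin subunit, had 667 and 1789.5 for controls against 1033, 958 and 1139.8 for heterozygotes. Differences between the controls were 2.68-fold for Cdca8, 2.81-fold for Aurkb and 2.85-fold for Birc5, with all heterozygous libraries in between.

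Of the centromere and kinetochore genes, Cenpe, Cenpf and Ndc80 lay between the controls. Cenpe, a kinetochore motor, had 881 and 2246 for controls against 1338, 1142 and 1325 for heterozygotes. Ndc80, a subunit of the microtubule-binding complex, had 315 and 827 for controls against 543, 512 and 561 for heterozygotes. Cenpf differed 2.33-fold (95% interval 2.19 to 2.48) between the controls. Cenpa, the histone H3 variant that marks centromeres (chromosome 5, 30666777 to 30674830, + strand), did not follow them. It had 1636 and 2601 for controls against 1213, 1157 and 1371 for heterozygotes, with all heterozygous libraries under both controls.

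The 6 spindle genes all lay between the controls. Kif11, the motor that separates the poles (chromosome 19, 37376403 to 37421859, + strand), had 1159 and 3206 for controls against 1646, 1568 and 1672 for heterozygotes. The motor stood nearer control replicate 1, at 33.4% of the way, with heterozygous values within 1.07-fold of each other. Tpx2, an activator of Aurka that nucleates spindle microtubules, had 1735 and 4218 for controls against 2646, 2517 and 2898 for heterozygotes. Ckap2l, Kif20b, Nusap1 and Hmmr, which bind microtubules, differed 1.90-fold (Nusap1) to 2.59-fold (Kif20b) between the controls.

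By role, the 3 cytokinesis genes differed least between the controls, with a median log2 ratio of 0.86. Anln, the anillin scaffold of the contractile ring (chromosome 9, 22332012 to 22389188, - strand), had 997 and 1464 for controls against 977, 888 and 865 for heterozygotes. All heterozygous values were under both controls, replicate 1 by little. Kif23, a subunit of centralspindlin, had 781 and 1417 for controls against 938, 753 and 915 for heterozygotes, with heterozygous replicate 2 under control replicate 1. Kif20a, a motor of the central spindle, had 685 and 1351 for controls against 919, 799 and 1000.5 for heterozygotes and lay in between. Its exons share 1271 bases with Cdc23 on the other strand. In all, 11 of the 32 genes share exon bases with another annotated gene, and strand-specific counting is not given in the sources used here, so some of their reads may belong to the neighbour.

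Among the 32, the genes outside the pattern were those with the narrowest gap between the controls. The 5 smallest ratios were those of Anln (1.47), Cenpa (1.59), Ccnb2 (1.66), Cdc25c (1.81) and Kif23 (1.81), and these are the 5 genes with a heterozygous library outside the controls. A narrow gap leaves less room, so this order is partly fixed by arithmetic. Heterozygous means ran from -59.1% (Cenpa) to 69.4% (Bub1) of the way from control replicate 1 to control replicate 2, with a median of 43.2% and 21 of 32 genes nearer control replicate 1. By role, the median was 54.8% for mitotic entry, 46.7% for checkpoint and exit, 38.9% for centromere and kinetochore and 17.1% for the 3 cytokinesis genes.

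**Figure D2:**
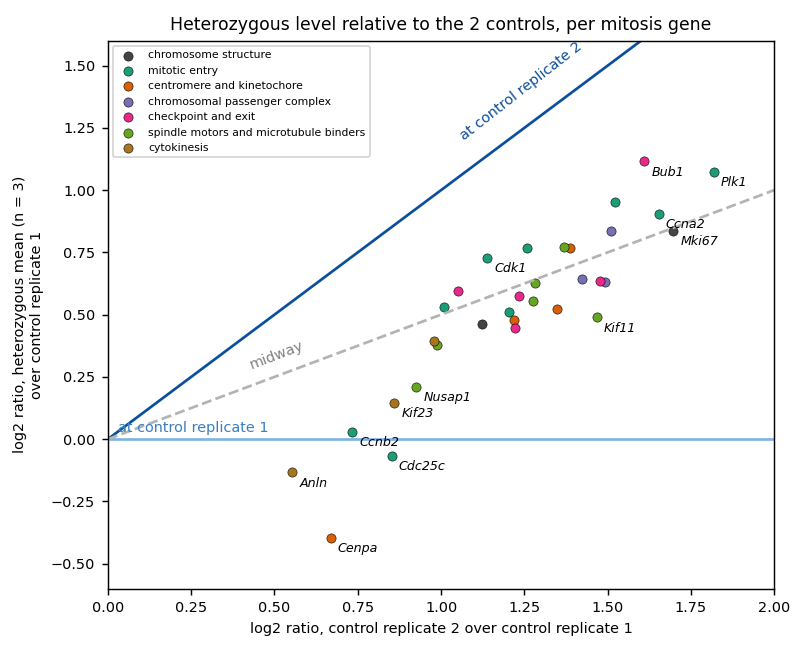
For each mitosis gene, the log2 ratio of control replicate 2 to control replicate 1 (horizontal axis) against the log2 ratio of the heterozygous mean (n = 3) to control replicate 1 (vertical axis), coloured by role, with lines for a level at either control and midway. The median gene lies 43.2% of the way from control replicate 1 to control replicate 2, Bub1 is farthest toward control replicate 2 at 69.4% of the way, and Cenpa, Anln and Cdc25c lie under control replicate 1.

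No mitosis gene passed the test of heterozygous against control. By limma, 0 of 32 rose and 0 fell at an adjusted p under 0.05, against 1.9% and 0.944% of tested genes (2.84% in either direction), and 1 of 32 had an unadjusted p under 0.05, against 26.1%. The median log2 fold change was -0.09, against 0.01 over all tested genes, with 11 positive and 21 negative. Standard errors were 0.19 (Anln) to 0.49 (Plk1). On recovered reads, edgeR's quasi-likelihood test called 0 of 32, against 1.46% higher and 1.03% lower over all genes (2.49% in either direction), with 2 genes at an unadjusted p under 0.05, against 27%. DESeq2 called Cenpa alone (lower, adjusted p = 0.0171), against 7.15% of genes lower and 7.3% higher, also with 2 genes at an unadjusted p under 0.05, against 27.3%. Mki67, with means of 6838 ± 5112 (SD, n = 2) and 5757 ± 199 (SD, n = 3), had a log2 fold change -0.01, with an SE of 0.45 and a limma adjusted p = 0.989. The largest positive value was that of Bub1 (log2 fold change 0.31, with an SE of 0.43 and a limma adjusted p = 0.664).

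Direction depended on which control was used. Without control replicate 1, all 32 log2 fold changes were negative, with a median of -0.70, and 29 fell and none rose, where 7.62% and 9.21% of tested genes did. Without control replicate 2, 29 of 32 were positive, with a median of 0.57, and 24 rose and 1 fell (Cenpa), where 27.2% and 23.5% of tested genes did (50.7% in either direction). These fits assume that the lone control varies like the heterozygous libraries. The 3 genes that did not pass without control replicate 1 were Cdk1, Ube2c and Nek2, at adjusted p values of 0.145, 0.0978 and 0.0918 in limma. Mki67 had a log2 fold change of -0.86 in that fit and 0.84 without control replicate 2.

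**Figure D3:**
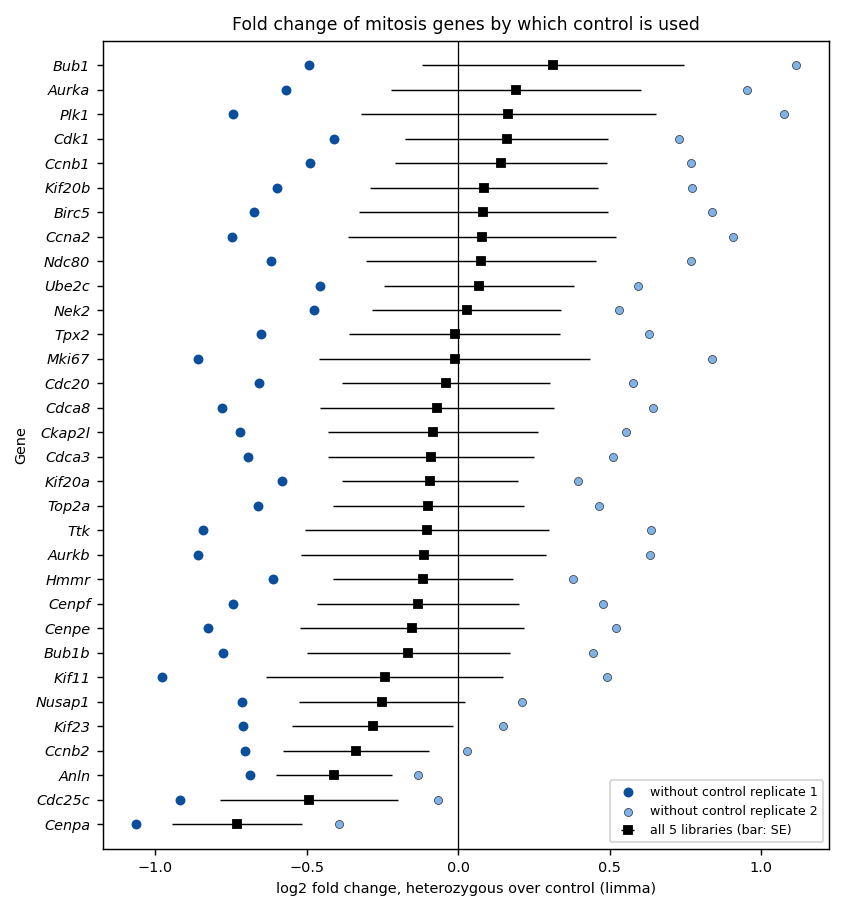
log2 fold change of heterozygous over control for each mitosis gene from limma, with all 5 libraries (squares, bars are SE), without control replicate 1 (dark points) and without control replicate 2 (light points). All 32 dark points lie under 0 and 29 of 32 light points over it, with the values for all 5 libraries between -0.73 (Cenpa) and 0.31 (Bub1).

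Cenpa kept a negative sign against either control. Its means were 2119 ± 682 normalized counts for controls (SD, n = 2), against 1247 ± 111 for heterozygotes (SD, n = 3), and it did not pass the test (log2 fold change -0.73, with an SE of 0.22 and a limma adjusted p = 0.107). The log2 fold change was -1.06 without control replicate 1 (limma adjusted p = 0.00244) and -0.40 without control replicate 2 (limma adjusted p = 0.0301). In the authors' deposited table Cenpa was the single mitosis gene past an adjusted p of 0.05 (log2 fold change -0.71, adjusted p = 0.0252), where 5.99% of genes with an adjusted p were called lower. Anln (log2 fold change -0.41, with an SE of 0.19 and a limma adjusted p = 0.228) and Cdc25c (log2 fold change -0.49, with an SE of 0.29 and a limma adjusted p = 0.325) were the other genes negative against either control, and neither passed with all 5 libraries. Without control replicate 1 the log2 fold changes of Anln and Cdc25c were -0.69 and -0.92. With control replicate 2 left out, they were -0.13 and -0.068. Groups that do not overlap were found for 2 of 32 mitosis genes, both lower (Cenpa and Anln), against 23.3% of tested genes lower and 23.4% higher.

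Heterozygous libraries agreed more closely with one another. The highest of the 3 exceeded the lowest by 1.07-fold (Kif11) to 1.42-fold (Cdc25c), with a median of 1.18-fold, and the gap between the controls was wider in all 32 genes, against 66.4% of tested genes. Heterozygous replicate 2 was the lowest of the 3 for 30 genes and replicate 3 the highest for 21. On the log2 scale replicate 3 exceeded replicate 2 by a median of 0.24, whereas the same median over all tested genes was 0.00. Replicate 2 is the library with high Xist, and the part of that in this gap was not tested.

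Per length, the mitosis genes spanned a wide range of levels. After Cdc20, the highest were Top2a (792 normalized counts per kb of exon), Ube2c (714), Ccnb1 (696) and Mki67 (615). At the lower end stood Nek2 (42.9), Cdc25c (80.4) and Ndc80 (85.0). Lengths are those of all annotated exons of a gene, which can exceed the transcript in use.

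Most other kinetochore, spindle, cytokinesis, condensin and cohesin genes showed the same order of libraries. Of 31 other kinetochore genes, 30 were higher in control replicate 2 and 24 had all heterozygous libraries in between. For 25 other spindle and cytokinesis genes these counts were 24 and 20, and for 20 condensin and cohesin genes, which shape and hold chromosomes, 17 and 12. Of tested genes, 51.5% were higher in control replicate 2 and 18.2% had all heterozygous libraries in between. Another 6 condensin and cohesin genes were under both controls, where 23.3% of tested genes were. The 17 anaphase-promoting complex genes differed less, with 14 higher in control replicate 2, 6 in between and a median log2 ratio between the controls of 0.29, against 1.25 for the 32 mitosis genes and 0.02 for all tested genes. No gene of these 4 lists passed limma over all genes, against 2.84% of tested genes. At an unadjusted p under 0.05 they held 1, 1, 4 and 0 genes, against 26.1% of tested genes. In these lists edgeR called none, against 2.49%, and DESeq2 called 1 spindle and cytokinesis gene and 1 condensin or cohesin gene, against 14.4%. Without control replicate 1 the median log2 fold changes of these 4 lists were -0.43, -0.69, -0.51 and -0.05, and with control replicate 2 left out instead they were 0.79, 0.38, 0.46 and 0.21, so the sign turned with the control as for the mitosis genes. The smallest p values were those of Cenpc1 and Cenpo of the inner kinetochore, Spag5 and Kif14 of the spindle and midbody, Ncaph2 of condensin and Rad21 of cohesin, and Anapc10 and Anapc16. The kinetochore, spindle, condensin and cohesin genes of these were below both controls and the last pair above both. Of tested genes, 23.3% were below both and 23.4% above both. Picking the smallest p values favours groups that do not overlap, so this position is largely fixed by the choice. Spag5 had the fold change farthest from 0 among the 8 (log2 fold change -0.65, with an SE of 0.17 and a limma adjusted p = 0.0840).

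Among 10 other genes of mitotic entry, Cdc25b fell and 9 did not pass, where 0.944% of tested genes fell. Cdc25b encodes a phosphatase that activates Cdk1 at the centrosome early in entry and is known in the embryonic nervous system for a role in neurogenic divisions. It showed normalized counts of 853 and 956 for controls against 459, 437 and 509.5 for heterozygotes. All heterozygous values were under both controls (log2 fold change -0.95, with an SE of 0.15 and a limma adjusted p = 0.0405), with -1.03 when control replicate 1 was left out and -0.87 when control replicate 2 was. The controls differed by 0.16 on the log2 scale for this gene, against 0.85 for Cdc25c. In limma without any 1 heterozygous library at most 1 of the 16411 genes passed, so calls in this and the marker lists rest on all 3. Gtse1, a microtubule-binding protein of G2, was next (log2 fold change 0.67, with an SE of 0.36 and a limma adjusted p = 0.281). The median of the 10 genes was -0.51 without control replicate 1 and 0.68 with control replicate 2 left out.

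Of 22 regulators of G2 and M transcription, none passed limma, edgeR or DESeq2, against 2.84%, 2.49% and 14.4% of tested genes. In limma 2 had an unadjusted p under 0.05 (26.1% of tested genes), Tfdp2 and Rbl2. The list had a median log2 fold change of -0.33 with control replicate 1 left out and 0.47 with control replicate 2 left out. Rbl2, the p130 protein of resting cells, had 1443 and 932 for controls against 760.2, 824 and 641 for heterozygotes, and thus differed in the opposite direction between the controls. Of the 22 regulators, 17 were higher in control replicate 2, where 51.5% of tested genes were. The heterozygous libraries lay in between for 14 (18.2% of tested genes) and under both controls for 5 (23.3%). Foxm1 and Mybl2, chosen after their values were seen as activators known to act on such promoters, had the order of the mitosis genes. Foxm1 had 578 and 2231 for controls against 1266, 1204 and 1226 for heterozygotes. Mybl2 had 149 and 624 for controls against 397, 354 and 403 for heterozygotes. For both, control replicate 2 was the highest library and control replicate 1 the lowest.

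DNA replication and S phase genes differed between the controls in the same direction. All 41 were higher in control replicate 2 and 37 had the heterozygous libraries in between, with a median log2 ratio of 1.74 between the controls. Their share of reads was 0.0893% and 0.281% for the 2 controls against 0.215%, 0.200% and 0.228% for the heterozygotes. No S phase gene passed limma, edgeR or DESeq2, against 2.84%, 2.49% and 14.4% of tested genes. In limma 0 had an unadjusted p under 0.05, against 26.1% of tested genes. The list had a median log2 fold change of -0.44 with control replicate 1 left out and 1.33 with control replicate 2 left out, again opposite in sign. Ccne1, the cyclin of entry into S phase, had the smallest p (log2 fold change 1.06, with an SE of 0.51 and a limma adjusted p = 0.243) and lay above both controls. The difference between the mitosis and S phase lists was not tested, since each control is 1 library.

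**Figure D4:**
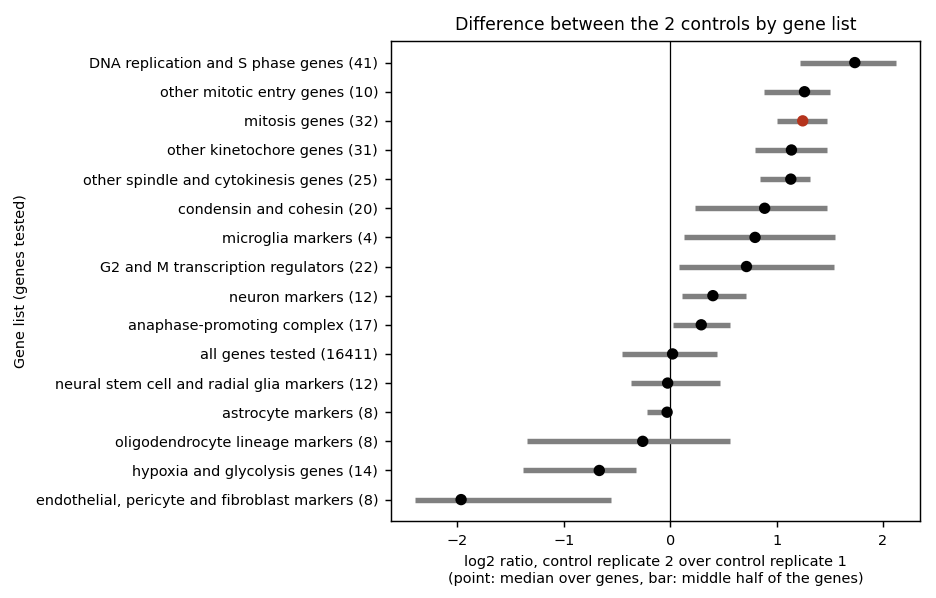
log2 ratio of control replicate 2 to control replicate 1 for each gene list, with the median over its tested genes (point, red for the mitosis genes) and the range from the lower to the upper quartile (bar). The mitosis genes have a median of 1.25 and S phase genes 1.74, against 0.02 for all tested genes and -0.67 for hypoxia and glycolysis genes.

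Other lists differed in whether they followed the order of the mitosis genes. Genes of hypoxia and glycolysis were in the opposite order between the controls, with 12 of 14 higher in control replicate 1. Their share of reads was 0.741% and 0.427% for the 2 controls against 0.233%, 0.220% and 0.239% for the heterozygotes. Of these 14 genes, 8 fell in heterozygous libraries (Pfkl, Egln3, Pdk1, Hk2, Vegfa, Ankrd37, Bnip3 and Car9), where 0.944% of tested genes fell, and 13 were under both controls in all 3, where 23.3% of tested genes were, so this list did not place the heterozygous libraries between the controls. Summed neuron markers, of cells that no longer divide, were 23151 and 31626 for controls against 57019, 46578 and 42484 for heterozygotes, with 6 of 12 rising (Nefl, Snap25, Stmn2, Nefm, Tubb3 and Syt1), where 1.9% of tested genes rose. Against the same 0.944% of tested genes that fell, the glial and stem cell lists held the following. Stem cell and radial glia markers summed to 188189 and 209618 for controls against 243092, 219441 and 246307 for heterozygotes, and Hes5 fell. Of these 12 genes, 8 were under both controls in all heterozygous libraries, where 23.3% of tested genes were. Only 2 were above both, where 23.4% were, so the sum ran against most of its genes. Astrocyte markers summed to 68527 and 56573 for controls against 43713, 45406 and 37404 for heterozygotes, and Fgfr3 and Aqp4 of 8 fell. Oligodendrocyte lineage markers summed to 51992 and 83263 for controls against 57159, 66094 and 73115 for heterozygotes, and Sox10 of 8 fell. The oligodendrocyte lineage sum had the order of the mitosis genes, lowest in control replicate 1, highest in control replicate 2 and in between in the heterozygous libraries, whereas the neuron, stem cell and astrocyte sums of the heterozygous libraries lay outside the controls. Endothelial, pericyte and fibroblast markers summed to 1543 and 486 for controls against 2666, 1547 and 1425 for heterozygotes. Most of that sum was Rgs5, named after its values were seen (1192 and 284 for controls against 2327, 1302 and 1270 for heterozygotes). Median log2 fold changes without control replicate 1 were -1.24, 1.25, -0.41, -0.47 and -0.49 for the hypoxia, neuron, stem cell, astrocyte and oligodendrocyte lineage lists. With control replicate 2 left out they were -1.95, 1.69, -0.63, -0.74 and -0.70, of the same sign in each. The endothelial, pericyte and fibroblast list turned, from 1.03 to -0.78, but several of its genes had low counts, the lowest with 52 reads over all libraries. No marker of any list was at 0 reads in every library. The part of cell composition and of culture oxygen in the difference of the mitosis genes was not tested.

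**Figure D5:**
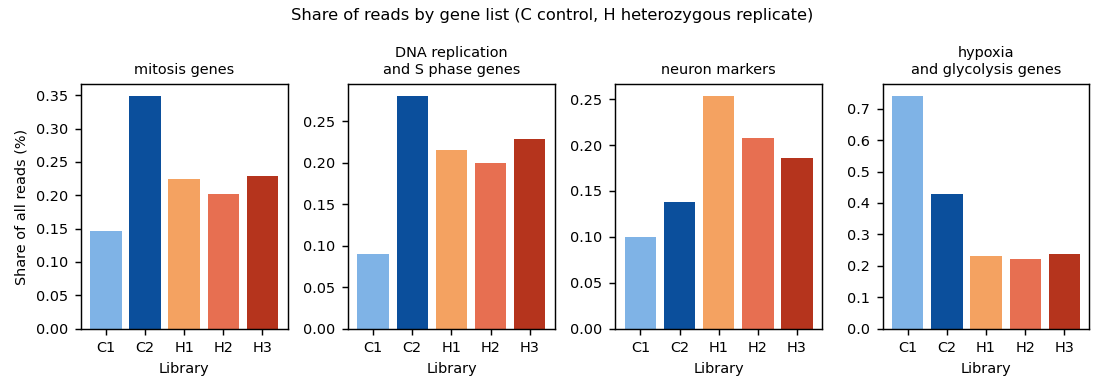
Share of all reads (percent) taken by 4 gene lists in each library, with C for control and H for heterozygous replicates; each panel has its own axis from 0. Mitosis genes run from 0.146% in control replicate 1 to 0.349% in control replicate 2 with heterozygous libraries at 0.202% to 0.229%, S phase genes follow the same order, and neuron markers and hypoxia genes place the heterozygous libraries outside the controls.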

How the data were processed

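RNA sequencing of 5 neurosphere libraries was compared between 2 control and 3 heterozygous samples, grouped by their titles. The authors used STAR, DESeq2 and the build mm10, per the submitters' processing notes; no source used here gives the annotation, counting tool or strand setting. Each library column is a normalized signal as deposited, gene counts divided by 1 size factor per library, and with a tolerance of 0.001 read 100% of them came out as whole reads. Beside it the authors deposited a log2 fold change, a p-value and an adjusted p-value, with a standard error and a Wald statistic as a score. No library column was left unused.

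Values were taken as log2(normalized count + 1) and tested with limma 3.58.1 (R 4.3.3) with an intensity trend over 16411 genes averaging 10 or more, two-sided, with Benjamini-Hochberg adjustment over all of them and a threshold of 0.05. The log2(value + pseudocount) scale understates changes of low genes. On the recovered reads, edgeR 4.0.16 called 409 genes and DESeq2 1.42.0 called 2325, against 466 by limma. Ratios between the controls carry exact binomial intervals at 95%, which cover counting error only. The limma step was tested on simulated data. Coordinates are 1-based on mm10 (GENCODE M21), and promoters come from RefSeq.

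The members and lists were chosen with earlier results of these data known. Named genes outside the 32 are, per list, those past the threshold and, for division genes, the 2 with the smallest p; other named genes are marked as chosen after their values were seen. A result that this rule would name is not reported here. Alternatives changed the pseudocount, filter, scaling, test, library weights, the libraries used and a replicate block.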

Additional observations from a re-analysis of the deposited data

How the results depend on the processing

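Pseudocounts of 0.5 and 5, a mean of at least 50 and no filter left the sign and the call of all 32 mitosis genes as they were. Under every scaling (total reads, TMM and quantile, whose position count was added after seeing the data) all 32 were lower in control replicate 1 and 27 had the heterozygous libraries between the controls, and the median of all tested genes moved by under 0.1. Log2 fold changes near 0 changed sign with edgeR (Ccna2 -0.15, Aurka -0.0034, Plk1 -0.10, Kif20b -0.076, Birc5 -0.11, Ube2c -0.020, Ndc80 -0.092 and Nek2 -0.069), DESeq2 (Ccna2 -0.14, Plk1 -0.096, Kif20b -0.071, Birc5 -0.10, Ube2c -0.016, Ndc80 -0.087 and Nek2 -0.066), quantile normalization (Tpx2 0.0029 and Nek2 -0.0035), library weights (Ube2c -0.0047) and the replicate block (Birc5 -0.0046 and Ube2c -0.052), none past the threshold, and the cause was not tested. The members' median was -0.21 with edgeR and DESeq2.

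DESeq2 called 1 member lower, and over all genes 1174 higher and 1151 lower. Library weights gave 79 and 38. With the replicate block 0 genes rose and 1 fell, and 0 mitosis genes passed. Replicate numbers were treated as names, and deviations of same-numbered libraries correlated at only 0.03 (replicate 1) and -0.04 (replicate 2). With 2 controls, their deviations from the control mean mirror each other, so these correlations cannot exclude a pairing by number.

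With 1 library left out at a time, members rising ranged from 0 to 24, members falling from 0 to 29, their median from -0.70 to 0.57, all genes rising from 0 to 4465 and falling from 0 to 3855. Without a heterozygous library, 0 or 1 gene passed in all, though as many samples remain as without a control. Over the 5 such fits, log2 fold changes ranged as follows: Mki67 -0.86 to 0.84, Top2a -0.66 to 0.46, Cdk1 -0.41 to 0.73, Ccnb1 -0.49 to 0.77, Ccnb2 -0.70 to 0.029, Ccna2 -0.75 to 0.91, Bub1 -0.49 to 1.12, Bub1b -0.78 to 0.44, Aurka -0.57 to 0.95, Aurkb -0.86 to 0.63, Plk1 -0.74 to 1.07, Cdc20 -0.66 to 0.58, Cdc25c -0.92 to -0.068, Cenpa -1.06 to -0.40, Cenpe -0.83 to 0.52, Cenpf -0.74 to 0.48, Kif11 -0.98 to 0.49, Kif23 -0.71 to 0.15, Kif20a -0.58 to 0.40, Kif20b -0.60 to 0.77, Nusap1 -0.71 to 0.21, Tpx2 -0.65 to 0.63, Hmmr -0.61 to 0.38, Birc5 -0.67 to 0.84, Ube2c -0.46 to 0.59, Ndc80 -0.62 to 0.77, Ttk -0.84 to 0.64, Anln -0.69 to -0.13, Ckap2l -0.72 to 0.55, Nek2 -0.48 to 0.53, Cdca8 -0.78 to 0.64, Cdca3 -0.69 to 0.51. With 2 controls that differ this much, the control mean of a mitosis gene rests on which library is used, while each had at least 113 reads in every library.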
